A study of Mus musculus with 6 samples.

Results

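Kupffer cells are the resident macrophages of the liver, and the genes described here are 10 whose products mark or maintain them in the mouse: Clec4f, Timd4, Vsig4, Marco, Cd5l, Cd163, Folr2, Fcna, Spic and Id3. The genes were taken from the table by their symbols, and all 10 were found among the 24532 genes of the deposited table. All 10 also passed the filter on low counts, which left 14415 genes to be tested. RNA came from the livers of 6 wild-type C57BL/6 mice, 3 in each group. The rhCYGB group ate a diet holding 0.1% DDC (3,5-diethoxycarbonyl-1,4-dihydrocollidine) for 4 weeks and was injected with recombinant human cytoglobin, an oxygen-binding globin protein, at 2 mg/kg, 2 times a week through the last 2 weeks. The vehicle group had the same diet for the same time and injections of normal saline. Livers were taken 2 days after the final dose. All mice therefore carried the DDC injury, in which porphyrin blocks bile ducts and the liver scars, and no healthy liver was analysed here. The study asks how the injected globin changes gene expression in that injured liver. The labels used here give neither age nor sex.

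Kupffer cells sit inside the liver sinusoids, where they clear bacteria, dying cells and worn-out red cells from the blood. Signals from stellate, endothelial and liver cells, among them CSF1, Notch ligands, TGF-beta and BMPs, hold them in this state through transcription factors such as LXR-alpha and ID3. In an inflamed liver some of these cells can be lost, and monocytes that arrive from the blood can take up parts of the same gene program. RNA from whole liver cannot tell fewer Kupffer cells from less of a transcript in each cell.

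Each library held between 58422095 and 72431373 estimated counts. The 3 rhCYGB libraries did not stand together, since on the first principal component of log2 CPM, with 67.6% of the variance, rhCYGB replicate 1 lay at -52.7, between the vehicle libraries (-81.3 to -24.5), and rhCYGB replicates 2 and 3 lay at 61.6 and 129.8. The factors of TMM scaling, which sets libraries to a common level over most genes, were 0.63 to 1.18 with rhCYGB and 1.07 to 1.45 with vehicle, so the choice of scale bears on every gene below. CPM here means counts scaled to a common library total after TMM, and TPM is a gene's share of the library per length of transcript. By edgeR's quasi-likelihood test 0 of 14415 genes (0%) passed a Benjamini-Hochberg adjusted p of 0.05, and 1170 (8.12%) had an unadjusted p under 0.05. DESeq2 gave an adjusted p to 1890 genes after its own filter on the mean and called 62, of which 60 were higher with rhCYGB (3.17%) and 2 lower (0.106%). It called 0 of the 6 members that had an adjusted p, and Timd4, Cd163, Folr2 and Spic had none. Limma-voom with weights for sample quality called 16.1% of genes as higher and 13.9% as lower, Marco and Fcna among the higher ones. The edgeR test without rhCYGB replicate 1 called 12.7% as higher, Marco among them, and 10.5% as lower. Limma-voom gave that library its lowest weight, 0.173. The other rhCYGB libraries had lower slopes of log2 CPM on transcript length than every vehicle library, as given below. Without rhCYGB replicate 1, group and length slope therefore cannot be told apart.

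No Kupffer gene passed the test between rhCYGB and vehicle. Of the 10 genes, 7 had a positive log2 fold change of rhCYGB over vehicle and 3 a negative one, with a median of 0.11, beside 46.8% positive, 53.2% negative and a median of -0.06 over all genes tested. For 3 members, Marco, Fcna and Cd163, the CPM ranges were apart, all higher with rhCYGB, against 6.02% of all genes in that direction and 13.4% in either. An unadjusted p under 0.05 was reached by 2, Marco and Fcna, both higher, against 6.06% of all genes in that direction and 2.06% in the other. On the TPM scale the groups overlapped for all 10 genes, while 14% of all genes tested did not overlap, 12.7% lower and 1.33% higher with rhCYGB.

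All 10 genes were detected in every library, though detection in whole liver does not show which cells made each transcript. By the mean TPM of the 6 libraries the order was Cd5l at 231, Id3 at 179.6, Vsig4 at 124.0, Marco at 123.6, Fcna at 115, Clec4f at 106, Folr2 at 29.7, Spic at 8.19, Cd163 at 7.53 and Timd4 at 5.95. Cd5l was above Id3 in 5 of 6 libraries and Id3 above Vsig4 in 6 of 6. Vsig4, Marco, Fcna and Clec4f could not be ranked beyond their spread: Vsig4 was above Marco in 3 of 6 libraries, Marco above Fcna in 3 and Fcna above Clec4f in 4. Clec4f was above Folr2 and Folr2 above Spic in 6 of 6, Spic above Cd163 in 4, and Cd163 above Timd4 in 6. The highest of the 6 libraries over the lowest was 6.69 for Cd5l, 6.63 for Timd4 and 5.59 for Folr2, and 1.85 for Spic and 1.80 for Marco, which varied least. Cd5l was at 324, 134 and 49.3 TPM in rhCYGB replicates 1 to 3 and at 330.2, 223 and 324 TPM in vehicle replicates 1 to 3, while Marco was at 160.0, 132 and 99.2 TPM with rhCYGB and 154, 88.8 and 107 TPM with vehicle. On this scale 9 of the 10 genes had their lowest value in rhCYGB replicate 3.

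**Figure D1:**
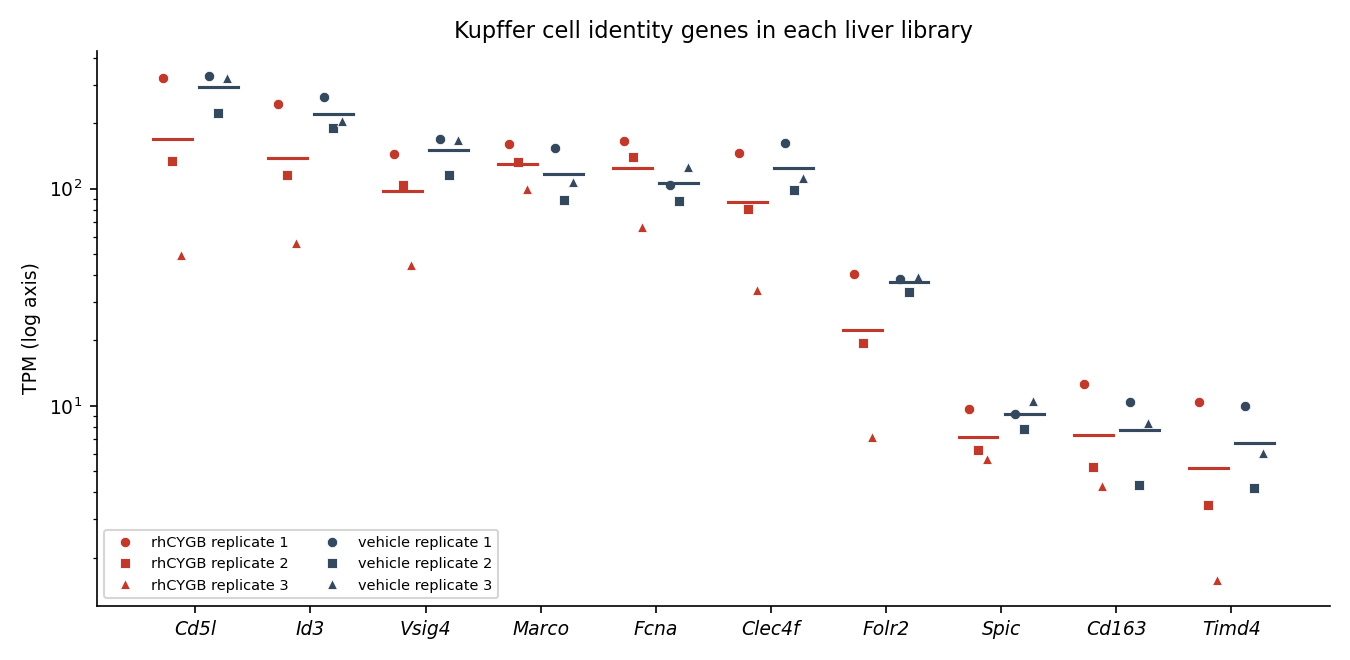
TPM (log axis) of the 10 Kupffer cell identity genes, ordered by their mean, with 1 marker per library and a line at each group's mean (n = 3 mice). rhCYGB replicate 3, the red triangle, is the lowest of the 6 libraries for 9 genes, and every pair of groups overlaps.

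In mm10, as the deposited transcript spans give it, Clec4f lies on chromosome 6 from 83644542 to 83656116, Timd4 on chromosome 11 from 46810799 to 46844333, Vsig4 on chromosome X from 96247203 to 96293438, Marco on chromosome 1 from 120474538 to 120505084 and Cd5l on chromosome 3 from 87357881 to 87371074. Fcna lies on chromosome 2 from 25624667 to 25627974, Spic on chromosome 10 from 88675270 to 88683023 and Id3 on chromosome 4 from 136143822 to 136145392, and Cd163 and Folr2 are placed below with their variants.

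Receptors that define the resident cell come first. Clec4f, a C-type lectin that in the mouse liver is close to unique to Kupffer cells, was at 163.02, 181 and 88.8 CPM in rhCYGB replicates 1 to 3 and at 139, 134 and 134 CPM in vehicle replicates 1 to 3. The vehicle values lay within a few CPM of each other, and the rhCYGB values fell on both sides of them. Its log2 fold change was 0.09 (SE 0.32, edgeR adjusted p = 0.883). Timd4, a phosphatidylserine receptor for dying cells that marks long-resident Kupffer cells, was at 10.5, 7.11 and 3.75 CPM with rhCYGB and 7.71, 5.12 and 6.61 CPM with vehicle. Its rhCYGB values held both the highest and the lowest of the 6 libraries. Vsig4, a complement receptor that captures opsonised bacteria, was at 95.4, 138 and 69.7 CPM with rhCYGB and 86.0, 93.5 and 120.0 CPM with vehicle, again with the extremes in the rhCYGB group. Folr2, a folate receptor of tissue macrophages, was at 20.2, 19.7 and 8.50 CPM with rhCYGB and 14.8, 20.3 and 21.2 CPM with vehicle, and only rhCYGB replicate 3 lay below the vehicle range. For Timd4, Vsig4 and Folr2 the log2 fold changes were 0.14 (SE 0.41), 0.02 (SE 0.32) and -0.22 (SE 0.37), each smaller than its standard error.

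The 2 scavenger receptors had a different pattern. Marco, a class A scavenger receptor that binds bacteria and particles, was at 147, 244 and 214 CPM in rhCYGB replicates 1 to 3 and at 109, 99.4 and 106 CPM in vehicle replicates 1 to 3. Every rhCYGB value lay above every vehicle value, with replicate 1 the nearest to them. Its log2 fold change of 0.94 had an SE of 0.28 and an edgeR adjusted p of 0.523 (unadjusted p = 0.0116). Cd163, the receptor that takes up haemoglobin bound to haptoglobin, was at 25.9, 21.7 and 20.8 CPM with rhCYGB and 16.5, 10.8 and 18.5 CPM with vehicle. These groups did not overlap either, but the gap between them was small beside the spread within vehicle, and the log2 fold change was 0.58 (SE 0.28, edgeR adjusted p = 0.523).

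Of the secreted products, Fcna and Cd5l had fold changes of opposite sign. Fcna encodes ficolin A, a soluble lectin that starts the lectin pathway of complement. It was at 101, 172 and 95.6 CPM with rhCYGB and 48.5, 65.4 and 83.0 CPM with vehicle, without overlap, and its log2 fold change was 0.90, with an SE of 0.34 and an edgeR adjusted p of 0.523 (unadjusted p = 0.0310). Cd5l, a scavenger receptor cysteine-rich protein that macrophages release into plasma, was at 305, 254 and 109 CPM with rhCYGB and 239, 256 and 330.2 CPM with vehicle. Its rhCYGB replicates 1 and 2 fell inside the vehicle range and replicate 3 below it, at a log2 fold change of -0.30 (SE 0.42, edgeR adjusted p = 0.712).

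Spic encodes an ETS-family factor that heme induces in mouse macrophages that recycle iron. It was at 5.70, 7.37 and 7.86 CPM with rhCYGB and 4.13, 5.58 and 6.66 CPM with vehicle. The ranges overlapped through rhCYGB replicate 1 and vehicle replicate 3, and the log2 fold change was 0.35 (SE 0.31, edgeR adjusted p = 0.600). Id3 encodes a helix-loop-helix protein that blocks the DNA binding of other such factors, is needed for Kupffer cell development and is also made by endothelial and other cells. It was at 108, 103 and 58.2 CPM with rhCYGB and 90.1, 102 and 98.0 CPM with vehicle, with replicate 3 again below the rest, at a log2 fold change of -0.11 (SE 0.30, edgeR adjusted p = 0.855).

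The sign turned with the scale for 5 of the 10 genes, Clec4f, Timd4, Vsig4, Cd163 and Spic, which were positive by edgeR and negative on log2(TPM + 1). By limma on log2(TPM + 1), where the median log2 fold change of all genes was -0.51, 2 of the 10 genes, Marco at 0.17 and Fcna at 0.14, had positive fold changes and 8 negative ones. Relative to the median of all genes, Marco stood at 1.00 by edgeR and 0.68 on log2(TPM + 1), Fcna at 0.96 and 0.65, and Cd163 at 0.63 and 0.39. Cd5l stood at -0.25 and -0.64 in the same order, Folr2 at -0.16 and -0.48, and Id3 at -0.05 and -0.38. Spic was above that median on both scales, at 0.41 and 0.18. Clec4f, Timd4 and Vsig4 lay above it by edgeR, at 0.15, 0.19 and 0.07, and below it on log2(TPM + 1), at -0.19, -0.02 and -0.25. Adding 0.1 TPM in place of 1 moved the all-gene median to -0.75. Clec4f and Timd4 then lay above it, at 0.04 and 0.06, and Vsig4 just below, at -0.01. For Clec4f and Timd4 the place below the median thus depended on the constant added. None of the 10 genes passed an adjusted p of 0.05 by edgeR or with either constant.

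**Figure D2:**
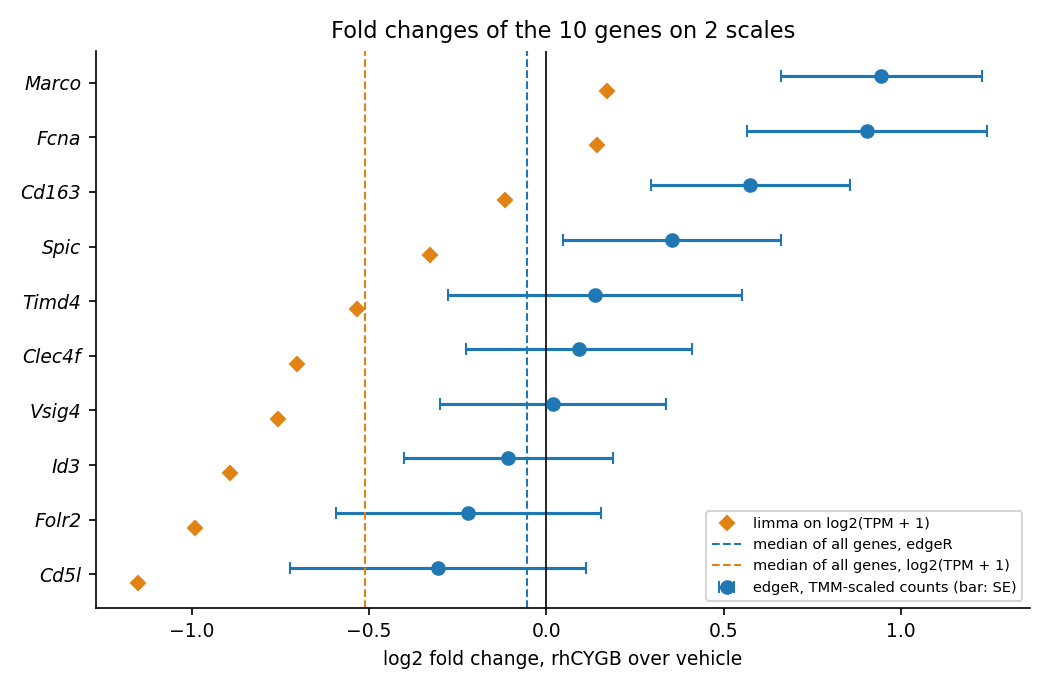
Log2 fold changes of rhCYGB over vehicle for the 10 genes by edgeR on TMM-scaled counts (circles, bars are SE, n = 3 mice per group) and by limma on log2(TPM + 1) (diamonds), with dashed lines at the median of all genes tested on each scale. Marco, Fcna, Cd163 and Spic lie to the right of both medians and Cd5l, Folr2 and Id3 to the left of both.

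Ratios between 2 genes of 1 library do not depend on its scaling, so they were used to compare the members with each other. Among the 45 pairs of members, the count ratios of the groups did not overlap for 10. In each of these 10 the gene with the relatively higher values in rhCYGB livers was Marco (4 pairs), Fcna (4 pairs) or Cd163 (2 pairs), set against Clec4f, Vsig4, Cd5l, Folr2 or Id3. Ratios among Marco, Fcna and Cd163 themselves overlapped, as did all those of Timd4 and Spic. This is not particular to the members: 50.8% of all genes had a ratio to Marco that was lower in every rhCYGB library, where 4 of the 9 other members had one. For Fcna the share was 37.4% of all genes and 4 of 9 members, and for Cd163 37.8% of all genes and 2 of 9 members. Seen from the other gene of each pair, the share of all genes whose ratio to it was higher in every rhCYGB library, whatever the size of the difference, was 3.28% over Id3, 3.82% over Folr2 and as given below for Cd5l, Clec4f and Vsig4. Because members were compared after their values were known, these ratios are described without a test.

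Marco over Cd5l was 0.482, 0.963 and 1.96 in rhCYGB replicates 1 to 3 and 0.455, 0.388 and 0.322 in vehicle replicates 1 to 3. Replicate 1 was barely above the vehicle range, and replicate 3 held more Marco than Cd5l counts. Of all other genes tested, 3.07% had a ratio to Cd5l that was higher in every rhCYGB library than in every vehicle library. Fcna over Cd5l was 0.331, 0.677 and 0.873 with rhCYGB and 0.203, 0.255 and 0.251 with vehicle, and Cd163 over Cd5l was 0.0848, 0.0855 and 0.1897 with rhCYGB and 0.0690, 0.0421 and 0.0562 with vehicle. Marco over Clec4f was 0.903, 1.35 and 2.41 with rhCYGB and 0.786, 0.745 and 0.795 with vehicle, where 1.19% of genes had a ratio to Clec4f that was likewise higher. Fcna over Vsig4 was 1.06, 1.24 and 1.37 with rhCYGB and 0.564, 0.699 and 0.691 with vehicle, so Fcna counts exceeded those of Vsig4 in every rhCYGB liver and in no vehicle liver, and 2.84% of genes had a ratio to Vsig4 that was likewise higher.

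Libraries also differed by transcript length. The slope of log2 CPM per doubling of length was 0.24, -0.35 and -0.33 in rhCYGB replicates 1 to 3. In vehicle replicates 1 to 3 it was 0.40, -0.02 and 0.06. Marco and Cd5l are of like length, at 1985 and 2037 bases, as are Fcna and Vsig4 at 1317 and 1432, while Id3 is shorter at 953 bases and Cd163 longer at 4447. With the length trend removed the log2 fold changes were 0.83 for Marco, 0.57 for Fcna, 0.87 for Cd163, -0.37 for Cd5l, -0.53 for Folr2 and -0.50 for Id3. Spic, at 0.35 before, was at 0.0021. The edgeR unadjusted p was then 0.0680 for Fcna, against 0.0310 before, and 0.00862 for Cd163, against 0.0772 before, and no member passed the adjusted threshold.

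**Figure D3:**
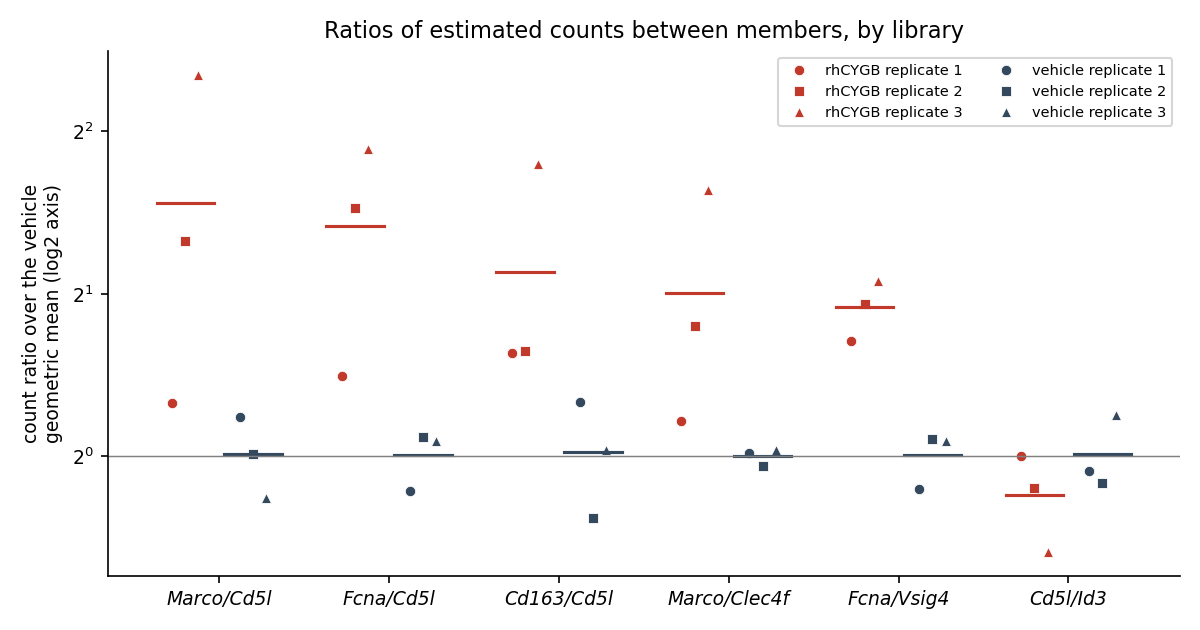
Ratios of estimated counts between pairs of members in each library, divided by the geometric mean of the vehicle libraries (log2 axis), with a line at each group's mean (n = 3 mice). In the first 5 pairs all rhCYGB libraries lie above all vehicle libraries, with rhCYGB replicate 1 the nearest to them in the Marco and Fcna pairs, while Cd5l over Id3 overlaps.

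The stretches just before the transcription starts of Marco and Fcna, and of Cd5l and Clec4f, against which their ratios did not overlap (Fcna over Clec4f apart), are shown to set these genes side by side. They are RefSeq sequence of GRCm38.p6, 5′ to 3′ on the strand of each gene. Marco lies on chromosome 1 (chr1:120505085-120505274, minus strand), Fcna on chromosome 2 (chr2:25627975-25628224, minus strand), Cd5l on chromosome 3 (chr3:87357631-87357880, plus strand) and Clec4f on chromosome 6 (chr6:83656117-83656366, minus strand). Capitals mark GGAAGT, the core of many ETS-family sites, GAGGAA, a core that PU.1 and SPIC can bind, and TGCTGA, part of the site of MAF factors, on either strand. The RefSeq start of Marco lies 60 bases inside the deposited transcript, so the Marco stretch is shorter.
Marco: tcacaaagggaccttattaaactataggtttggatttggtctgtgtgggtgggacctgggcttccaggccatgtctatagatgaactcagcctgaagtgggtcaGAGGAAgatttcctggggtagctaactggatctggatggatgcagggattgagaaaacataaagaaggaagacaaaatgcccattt
Fcna: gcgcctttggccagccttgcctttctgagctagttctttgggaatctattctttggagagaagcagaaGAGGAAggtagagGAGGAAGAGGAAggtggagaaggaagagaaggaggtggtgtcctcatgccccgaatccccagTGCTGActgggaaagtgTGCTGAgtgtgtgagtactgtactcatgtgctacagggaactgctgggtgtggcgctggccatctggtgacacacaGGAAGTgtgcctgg
Cd5l: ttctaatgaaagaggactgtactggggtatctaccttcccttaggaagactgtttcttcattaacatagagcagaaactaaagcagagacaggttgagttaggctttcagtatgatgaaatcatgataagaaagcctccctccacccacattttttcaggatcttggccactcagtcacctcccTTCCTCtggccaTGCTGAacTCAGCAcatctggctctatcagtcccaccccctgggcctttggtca
Clec4f: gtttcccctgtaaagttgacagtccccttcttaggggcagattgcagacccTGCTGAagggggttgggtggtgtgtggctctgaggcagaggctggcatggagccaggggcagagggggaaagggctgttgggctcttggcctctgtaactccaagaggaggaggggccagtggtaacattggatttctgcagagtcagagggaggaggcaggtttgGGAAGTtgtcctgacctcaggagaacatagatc
In the 250 bases before the start, GGAAGT was found for 6 of the 10 genes (Clec4f, Timd4, Vsig4, Folr2, Fcna and Spic), beside 19.7% of 32851 such windows of the mouse genome. GAGGAA was found for 5 (Vsig4, Marco, Cd5l, Fcna and Id3), beside 23.3% of windows, and TGCTGA for 6 (Clec4f, Timd4, Cd5l, Folr2, Fcna and Spic), beside 16.1%. A gene was counted once however many matches it held, such as the 3 copies of GAGGAA before Fcna, and matches of the 2 ETS motifs can share bases. Of the genes printed, Marco held GAGGAA alone, Fcna all 3 motifs, Cd5l GAGGAA and TGCTGA, and Clec4f GGAAGT and TGCTGA. Folr2 has windows before both of its starts, and its GGAAGT lies only before the upstream start of variant 1, so 5 of the 10 genes have it when that window is left out. For Cd163 no match to these letters lay in this window.

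Cd163 has 2 transcript variants in the deposited table, both on chromosome 6 from 124304651 to 124330527 of mm10, and the ranges of their shares in the groups were apart. They part at exon 16 of 17, where variant 1 starts the exon 83 bases earlier (chr6:124328962-124329044, plus strand) than variant 2. These bases are coding. From that exon on, variant 1 has 155 coding bases before its stop codon and variant 2 has 41, so the variants encode different ends of the protein, which is its tail inside the cell. The extra bases are in capitals in the mm10 transcript sequence of GENCODE M21, with 24 bases on either side.
Cd163 variant 1: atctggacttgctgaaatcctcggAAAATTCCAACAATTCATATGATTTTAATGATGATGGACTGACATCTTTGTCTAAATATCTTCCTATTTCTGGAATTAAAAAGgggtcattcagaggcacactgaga
Cd163 variant 2: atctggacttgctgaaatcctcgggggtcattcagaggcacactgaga
Variant 1 has 4492 bases and variant 2 has 4409 on the same span, so how their reads were divided is uncertain. Variant 1 held 43.4%, 66.2% and 59.6% of the gene's estimated counts in rhCYGB replicates 1 to 3, against 35.6%, 38.2% and 40.0% in vehicle replicates 1 to 3. Variant 2 held the rest, 43.6% ± 11.7 with rhCYGB and 62.0% ± 2.21 with vehicle (SD, n = 3 each). The groups did not overlap, and the two-sided exact permutation p of the difference was 0.1, the smallest that 3 against 3 mice allow. Such differences were common in these libraries: of 2864 genes with comparable variants, 17.5% had a share that did not overlap, and 45.2% had a difference at least as large as that of Cd163 variant 2, -18.4 percentage points. By edgeR on transcripts, where 0 of 19664 passed (0%) and 795 (4.04%) had an unadjusted p under 0.05, the log2 fold change was 1.03 (SE 0.34, adjusted p = 0.802) for variant 1 and 0.03 (SE 0.44, adjusted p = 0.987) for variant 2.

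**Figure D4:**
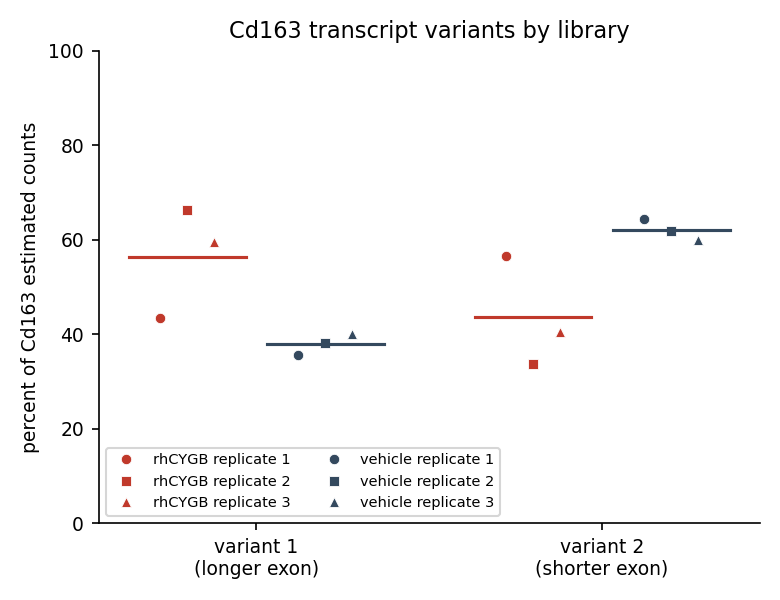
Percent of Cd163 estimated counts that the authors' assembly gave to each transcript variant, with 1 marker per library and a line at each group's mean (n = 3 mice). Variant 1 lies at 43.4% to 66.2% in rhCYGB livers and at 35.6% to 40.0% in vehicle livers.

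Folr2 is listed with 3 variants. Variant 2, of 1081 bases, held 81.8%, 100% and 99.7% of its counts with rhCYGB and 82.5%, 73.9% and 87.0% with vehicle. Variant 3, of 1077 bases on the same span (chromosome 7, 101839988 to 101845331), had 282, 0 and 1 estimated counts with rhCYGB and 218, 373 and 193 with vehicle. These variants are almost the same length on the same span, so how their reads were divided is uncertain. Variant 1, which starts further upstream, had 1 estimated count in vehicle replicate 1 and 0 in the other 5 libraries. The other 8 members have 1 transcript each in the table.

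Other genes enriched in Kupffer cells were split evenly. Of 18 such genes 0 passed the test, 9 had higher and 9 lower values with rhCYGB, and the median log2 fold change was 8.48e-04, beside -0.06 over all genes. The most abundant were Slc40a1, the iron exporter ferroportin, at 189 ± 68.5 CPM with rhCYGB and 188 ± 28.5 CPM with vehicle, and Hmox1, the enzyme that breaks down heme, at 110.4 ± 15.9 CPM with rhCYGB and 113 ± 23.6 CPM with vehicle (SD, n = 3 each). CPM of 1 of the 18, the syndecan gene Sdc3, did not overlap and was lower with rhCYGB, against 7.38% of all genes in that direction. It was chosen after its values were seen.

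Most niche signals, receptors and transcription factors of Kupffer cells had negative fold changes, none of them past the test. RNA from whole liver does not show which cells made these transcripts, and their cell source was not tested. Of 25 tested, 0 passed the test, 7 had higher and 18 lower values with rhCYGB, with a median of -0.31, and Bmp10 was too low to be tested. Groups did not overlap for 6, of which Tgfb1, Acvrl1, Maf, Irf8 and Klf4 were lower (7.38% of all genes) and Rxra higher (6.02%). Rxra, the partner receptor of LXR-alpha, was at 367 ± 117 CPM with rhCYGB and 224 ± 36.6 CPM with vehicle, and Csf1r, the receptor for the growth factor CSF1, at 149 ± 29.2 and 162 ± 31.5 CPM. LXR-alpha itself (Nr1h3) was at 77.2, 109.7 and 119 CPM with rhCYGB and 63.0, 89.1 and 81.8 CPM with vehicle, with overlap. Of the 25 genes, 1 had an edgeR unadjusted p under 0.05, Tgfb1, which was lower. Over all genes the share was 2.06% in that direction and 8.12% in either. Tgfb1 was at 14.8, 16.3 and 8.87 CPM with rhCYGB and 19.3, 23.8 and 28.2 CPM with vehicle (log2 fold change -0.83, SE 0.31, edgeR adjusted p = 0.523). Nr1h3 and the genes that did not overlap, in this list and those that follow, were named with their values in view.

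Genes that macrophages share, and those of cells newly arrived from blood, had mostly negative fold changes. Whether these lists differ from the Kupffer genes was not tested. On log2(TPM + 1) the median of all genes was -0.51, and 12.8% of all genes were positive. Sums of TPM are to be read beside this. Of 15 shared macrophage genes 0 passed, and 1, Mpeg1, did not overlap on CPM and was lower (7.38% of all genes), while on TPM 8 did not overlap and were lower (12.7% of all genes). The list had 4 higher and 11 lower values, with a median of -0.22 and a summed level of 2032 to 3186 TPM with rhCYGB and 4355 to 6341 TPM with vehicle. Lyz2, lysozyme, was at 772 ± 315 CPM with rhCYGB and 985 ± 352 CPM with vehicle, and C1qb, a complement subunit, at 332 ± 144 CPM with rhCYGB and 258 ± 82.8 CPM with vehicle. Of 10 monocyte genes 0 passed, 3 had higher and 7 lower values, with a median of -0.77, and 5 did not overlap, all lower with rhCYGB (Ly6c2, Ccr2, Cx3cr1, Itgam and F13a1), against 7.38% of all genes in that direction. Summed, they were at 86.3 to 111 TPM with rhCYGB and 149.9 to 186 TPM with vehicle, and their most abundant members were Chil3, at 45.7 ± 48.3 CPM with rhCYGB and 17.3 ± 7.66 CPM with vehicle, and Plac8, at 22.8 ± 6.60 CPM with rhCYGB and 22.2 ± 7.09 CPM with vehicle. Of 10 genes of lipid- and scar-associated macrophages 0 passed, 2 had higher and 8 lower values, with a median of -0.40, and 2 did not overlap, Itgax and Mmp12, both lower, against the same 7.38%. They summed to 1688 to 2189 TPM with rhCYGB and 2669 to 4193 TPM with vehicle, led by Ctsd, at 1972 ± 797 CPM with rhCYGB and 1426 ± 432 CPM with vehicle, and Lpl, at 352 ± 109 CPM with rhCYGB and 417 ± 233 CPM with vehicle. Of the monocyte and scar macrophage genes that did not overlap, all but Ly6c2 are long, at 3589 to 4681 bases. Ly6c2 has 801 bases and a mean of 1.20 CPM. Some long genes overlapped, such as Lpl at 4049 bases. Libraries differed by transcript length, as given above, and the part of length in these counts was not tested.

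Set against Ccr2, F13a1 or Mmp12, genes of recruited cells, each Kupffer gene had higher ratios in rhCYGB livers, as had most genes tested. Count ratios to Ccr2, the chemokine receptor that brings monocytes in, to F13a1, a clotting factor subunit of monocytes, and to Mmp12, macrophage elastase, did not overlap and were higher with rhCYGB for 10 of 10 members each. The same held for 77.5%, 76.3% and 54.3% of all genes. Ccr2 itself was at 7.40, 5.77 and 1.70 CPM with rhCYGB and 19.4, 16.1 and 12.5 CPM with vehicle, and Mmp12 at 69.3, 85.3 and 38.3 CPM with rhCYGB and 115, 164 and 291 CPM with vehicle. These denominators were chosen after their values were seen. Set against Adgre1, the F4/80 antigen of macrophages in general, 6 of 10 members (Clec4f, Timd4, Marco, Cd163, Fcna and Id3) had ratios that were higher in every rhCYGB library, beside 10.2% of all genes. Clec4f over Adgre1 was 4.09, 5.08 and 4.22 with rhCYGB and 3.15, 3.54 and 2.52 with vehicle. Adgre1 was at 39.9, 35.6 and 21.1 CPM with rhCYGB and 44.1, 37.7 and 53.0 CPM with vehicle. Against Csf1r the count was 3 of 10 (14.5% of all genes) and against Cd68, a lysosomal protein of macrophages, 2 of 10 (14.4%), and against Itgax, the CD11c integrin of dendritic cells and recruited macrophages, 7 of 10 (50.4%). The outcome thus turned on which gene was the denominator. Ccr2, F13a1, Mmp12, Itgax, Adgre1 and Csf1r are long, at 3589, 3877, 3610, 4025, 3245 and 3875 bases. Every member but Cd163 is shorter than these. Length slopes in rhCYGB replicates 2 and 3 lay below the vehicle range, as given above, so these ratios are not free of differences by length. The part of length in them was not tested.

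**Figure D5:**
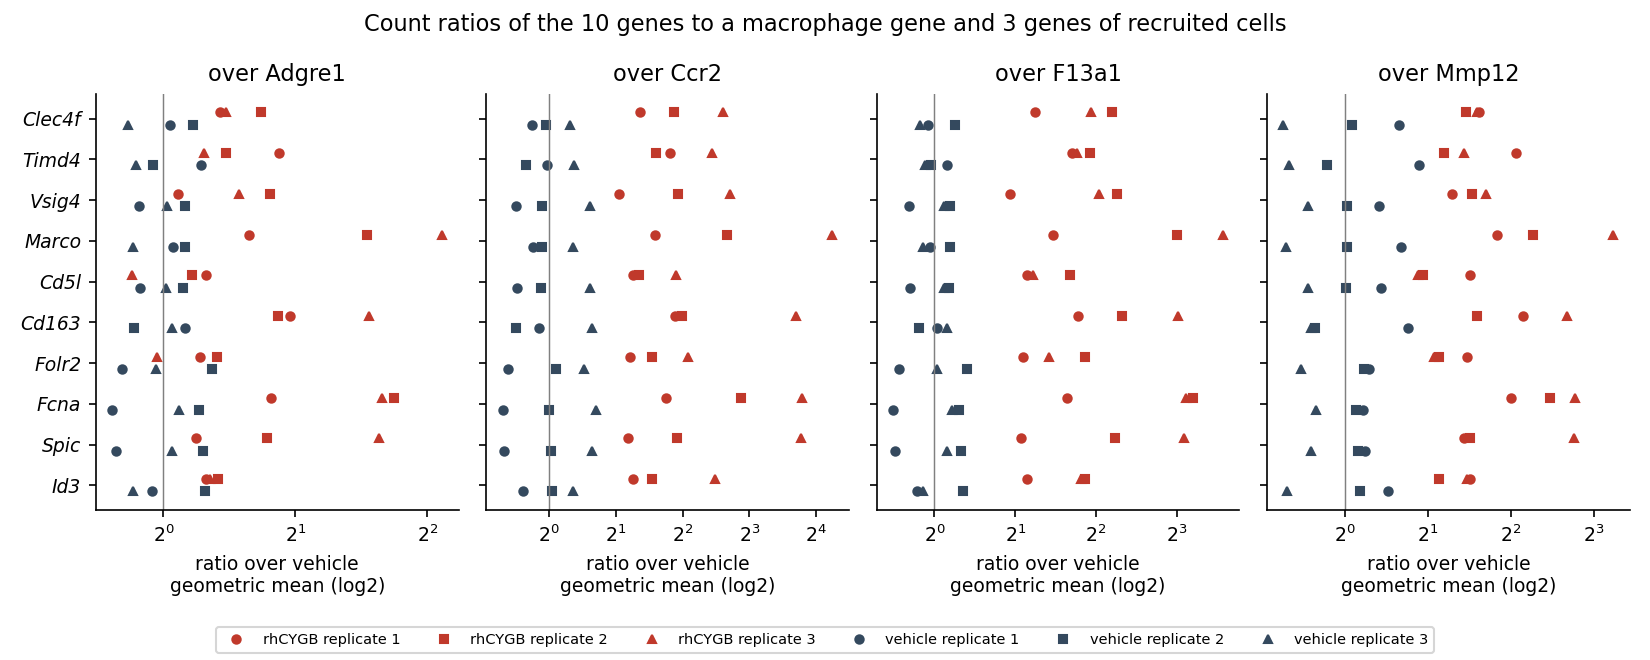
Count ratios of each of the 10 genes to Adgre1, Ccr2, F13a1 and Mmp12 in each library, divided by the geometric mean of the vehicle libraries (log2 axes). Red markers (rhCYGB) lie to the right of all dark markers (vehicle) for 10 of 10 genes over Ccr2, F13a1 and Mmp12 and for 6 of 10 over Adgre1.

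The RNA also holds other liver cells, whose markers are given here by their number with a positive or negative fold change and by their summed TPM. None of their genes passed the test, and their part in the results above was not tested. Here too the sums of TPM stand beside a median of -0.51 over all genes on log2(TPM + 1). Hepatocyte genes had positive fold changes by edgeR in 8 of 8, among them Alb, albumin, at 117970 ± 39949 CPM with rhCYGB and 63542 ± 15808 CPM with vehicle, and summed to 112230 to 134530 TPM with rhCYGB and 96954 to 112370 TPM with vehicle. Their direction turned with the scale for some. Mean TPM was lower with rhCYGB for Ttr (6162 against 7293), Cps1 (952 against 1065) and Serpina1c (3630 against 3670), and higher for the others. Sinusoidal endothelial genes had negative ones in 7 of 9 and summed to 28.9 to 147 TPM with rhCYGB and 95.7 to 184 TPM with vehicle. Clec4g, their most abundant, was at 35.3 ± 13.6 CPM with rhCYGB and 29.9 ± 4.94 CPM with vehicle. Stellate cell genes had negative ones in 6 of 8 and summed to 121 to 415 TPM with rhCYGB and 356 to 709 TPM with vehicle, led by Dcn, decorin, at 139 ± 77.02 CPM with rhCYGB and 249 ± 68.6 CPM with vehicle. The endothelial and stellate sums were lowest in rhCYGB replicate 3, the library in which most Kupffer genes were lowest, and so were those of the bile duct, dendritic, neutrophil, shared macrophage, scar macrophage, other Kupffer and niche signal lists. Bile duct genes were split 3 to 3 and summed to 51.8 to 59.7 TPM with rhCYGB and 63.6 to 136 TPM with vehicle, led by Krt19 at 31.7 ± 15.9 CPM with rhCYGB and 20.7 ± 1.65 CPM with vehicle.

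Of the blood cell lists, dendritic cell genes summed to 0.652 to 3.40 TPM with rhCYGB and 2.67 to 6.65 TPM with vehicle, with negative fold changes in 5 of 5 tested, and Siglech and Cd209a were at 0 in at least 1 library. T and NK cell genes had positive ones in 5 of 7 and summed to 5.09 to 12.8 TPM with rhCYGB and 4.29 to 10.1 TPM with vehicle. Neutrophil genes had negative ones in 4 of 6 and summed to 76.1 to 146 TPM with rhCYGB and 141 to 245 TPM with vehicle. Red cell genes had negative ones in 4 of 5, and their sums ranged widely within both groups, from 39.2 to 687 TPM with rhCYGB and from 47.3 to 1462 TPM with vehicle.

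By likeness of profile the members lay at different distances from Clec4f. Over the 6 libraries, log2 CPM centred on each gene's mean was compared with that of Clec4f by the root mean square difference, among 11857 genes with a mean of at least 1 CPM. Members, predicted genes, clones and pseudogenes were left out of these 11857. The nearest were Palmd (0.0876 log2 units), Angptl6 (0.106), Inpp1 (0.112), Gmnn (0.125) and Cops2 (0.132). Among the members Id3 was nearest to Clec4f, at 0.136, followed by Vsig4 at 0.209, Folr2 at 0.268, Timd4 at 0.272 and Cd5l at 0.324. Set among the 11857 genes, these members would rank 6, 107, 477, 514 and 1260 in the same order. Cd163 at 0.463, Spic at 0.497, Fcna at 0.547 and Marco at 0.606 were further away, at ranks 4248, 5059, 6125 and 7120. For the mean profile of the 10 members the nearest genes were Angptl6 (0.0897), Pxmp4 (0.0969), Mrps22 (0.102), Rab43 (0.112) and Gucd1 (0.113).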

How the data were processed

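Whole-liver poly(A) RNA was sequenced as paired ends after a stranded library kit, per the labels' protocols. The submitters' processing notes name FastQC 0.11.7, HISAT2 2.1.0, StringTie 1.3.4d and the mm10 build, while the strand setting and the release of the annotation could not be read from the labels used here. The authors deposited estimated counts, already whole numbers, and FPKM per gene and per transcript. The estimated counts equal FPKM times transcript length times 1 constant per library, so they carry StringTie's division of reads between variants. TPM was computed here from the deposited FPKM.

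Groups followed the labels, which name each animal, with 3 mice in each. Genes were filtered with filterByExpr, scaled by TMM and tested with edgeR 4.0.16's robust quasi-likelihood F test in R 4.3.3, with Benjamini-Hochberg adjustment over all genes tested. Dividing the absolute fold change (log2) by the root of its F statistic gave the SE. Limma 3.58.1 and DESeq2 1.42.0 served as alternatives, limma on log2(TPM + 1) among them. Transcripts were tested likewise. Shares of variants were compared for genes with more than 1 transcript and at least 50 estimated counts in every library. Each variant compared had a mean share of at least 10% and left at least 10% to the gene's other variants. Scripts were tested on simulated data. The values of 1 marker list are not reported here. The 10 genes, the gene lists and the tests were chosen with earlier results of these data known. The text names all 10 members, the most abundant genes of the other lists, and a few genes marked in the text as picked with their values in view. Python 3.11.15, pandas 2.3.3 and matplotlib 3.10.9 were used. Libraries held 58422095 to 72431373 estimated counts, and genes with few counts carry more counting error.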

Additional observations from a re-analysis of the deposited data

How the results depend on the processing

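Marco and Fcna kept a positive log2 fold change under every other scaling, filter and test tried and without each library in turn, from 0.17 to 1.16 and from 0.14 to 1.11. Signs turned for others: with upper-quartile factors Clec4f was -0.026 and Vsig4 -0.10; on log2(TPM + 1) Clec4f was -0.70, Timd4 -0.53, Vsig4 -0.76, Cd163 -0.12 and Spic -0.33; on log2(TPM + 0.1) they were -0.71, -0.69, -0.76, -0.14 and -0.37; and with the length trend removed Vsig4 was -0.26. Leaving out each library in turn gave -0.11 to 0.34 for Clec4f, -0.26 to 0.44 for Timd4, -0.28 to 0.23 for Vsig4, -0.60 to 0.018 for Cd5l, -0.42 to 0.081 for Folr2 and -0.27 to 0.12 for Id3, and without rhCYGB replicate 3 all 10 members were positive. The edgeR test called 0 genes. The count was 62 by DESeq2 and 4323 by limma-voom weighted for sample quality, which took in 2 members, Marco (adjusted p = 0.0163) and Fcna (adjusted p = 0.0201), with the lowest weight, 0.173, on rhCYGB replicate 1. Leaving out 1 library gave 0 to 3391 genes and 0 to 1 members, the 3391 and the member Marco (edgeR adjusted p = 0.0223) without rhCYGB replicate 1, and 0 to 958 transcripts. Members whose values did not overlap numbered 0 on TPM (14% of all genes), 2 with upper-quartile factors and 3 to 5 with 1 library left out. For upper-quartile factors and with 1 library left out, the share of all genes was not counted. These member counts therefore cannot be read as a trait of the members. Pairs of members whose ratios did not overlap numbered 11 to 25 with 1 library left out, against 10, and separation is easier with fewer libraries. The non-overlap counts with 1 library left out, on TPM and with upper-quartile factors were chosen after seeing the data. The causes were not tested. No paired analysis was possible because the replicate numbers follow only the order of deposit and pair no mice.

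With 3 mice per group, a p that misses the threshold does not show that a gene did not differ.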
